A study of Mus musculus with 3 samples.

Results

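The 8 genes described here encode proteins of the sperm tail's fibrous sheath or proteins that dock to it: the anchors Akap3 and Akap4, the RIIa-domain genes Ropn1, Ropn1l, Spa17 and Cabyr, and the fibrous sheath interacting genes Fsip1 and Fsip2. They were taken by their symbols in the platform annotation, which gave each of them 1 probe set of its own, and make up 8 of 19938 named genes. The material was RNA from testes of wild type male BALB/c mice, 30 days old, labelled as spermatids, the haploid germ cells that build the sperm tail. It was measured on 3 replicate GeneChip Mouse Gene 1.0 ST arrays that form 1 group, with no control or treated group to set against it. The labels describe a filtered cell suspension made from testis tubules and give no step that purifies spermatids. They do not say whether the replicates came from separate animals, so the spread between arrays may be technical.

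The fibrous sheath is a sleeve of columns and ribs around the axoneme in the principal piece of the mammalian sperm tail. Akap4 encodes its main structural protein and Akap3 a second large anchor. Both hold protein kinase A (PKA), the kinase switched on by cyclic AMP, by binding its regulatory subunits. Those subunits dock through a dimerization and docking segment, the RIIa domain, and Ropn1, Ropn1l, Spa17 and Cabyr carry a segment of the same kind without being kinase subunits. The sheath also carries enzymes of glycolysis that supply the moving tail with ATP.

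All 8 genes lay above background on every array, as did 37.6% of all named genes, and their median level was 11.61 against 7.45 over all named genes. Levels are log2 values from Robust Multichip Average (RMA), and each error is an SD over 3 arrays. Background was set at 7.98, the value that 95% of 211 vomeronasal receptor and hair keratin associated protein genes did not exceed. Whether all of these genes are silent in testis was not tested. A gene counted as above background where limma's one-sided test of its mean against that level passed an adjusted p of 0.05. Benjamini-Hochberg adjustment ran over all 19938 genes. The test takes the level as fixed and weighs only the spread between arrays, so its adjusted p is not an error rate for expression. The 8 of 8 stand beside 7295 of 19938 named genes, or 36.6%, called by the same rule. Each gene is read by its own probes, which bind with different strength, so the levels below are not an order of transcript amounts.

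**Figure D1:**
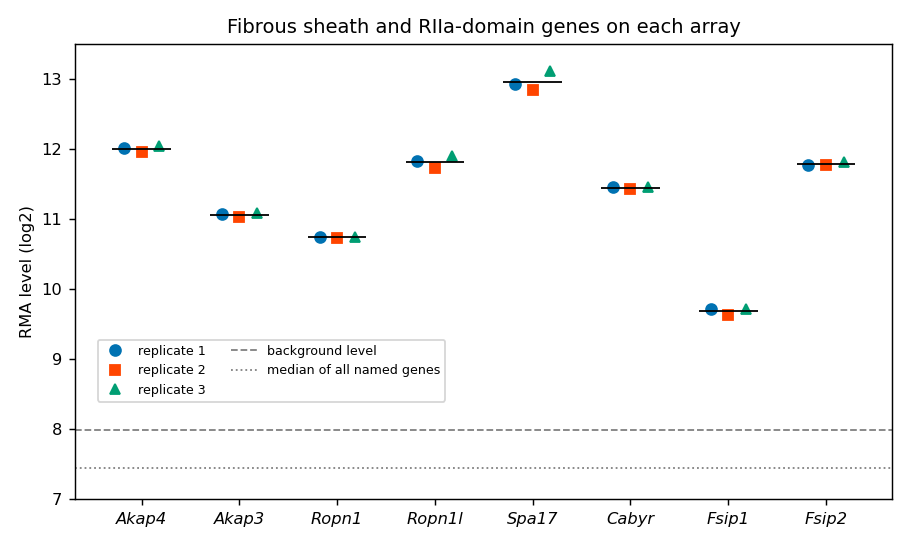
RMA level (log2, vertical axis) of each of the 8 genes on replicates 1, 2 and 3, with a horizontal bar at the mean. All points lie above the dashed background level of 7.98, from Fsip1 at a mean of 9.69 to Spa17 at 12.96, and the arrays lie close together for each gene.

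The sheath anchors were both far above background. Akap4, an X-linked gene, was at 12.01, 11.96 and 12.04 on replicates 1, 2 and 3. Its mean of 12.00 ± 0.04 (n = 3) was 4.02 above the background level, with a standard error of 0.02 (limma, adjusted p = 2.2e-05). Akap3 was at 11.07, 11.02 and 11.09, a mean of 11.06 ± 0.03 (n = 3) that was 3.08 above the level (limma, adjusted p = 2.51e-05). For both anchors every array exceeded the background level by far more than the arrays differed from each other.

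The promoters of the anchors shared an uninterrupted run of 20 identical bases close to the annotated start. The stretches of 120 bases just before the starts are given here because this run is in both of them, in capitals. They come from the RefSeq promoter table of build GRCm38.p6, a C57BL/6J reference and not the BALB/c genome, at chr6:126852978-126853097, plus strand, and chrX:7067395-7067514, plus strand. The table lists 2 starts for Akap4, and the stretch shown belongs to the one further upstream.
Akap3: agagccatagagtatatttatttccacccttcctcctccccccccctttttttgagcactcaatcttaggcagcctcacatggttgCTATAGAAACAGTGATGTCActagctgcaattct
Akap4: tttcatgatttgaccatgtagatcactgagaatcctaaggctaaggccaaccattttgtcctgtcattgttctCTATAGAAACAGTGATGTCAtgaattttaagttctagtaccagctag
The run lay from -34 to -15 in Akap3 and from -47 to -28 in Akap4, counted from the base before the start as -1. Of 32851 promoters of 300 bases in the table, 2 held the run on either strand, and these were the ones of Akap3 and Akap4. Cut back from its 5′ end to 13 bases, AACAGTGATGTCA, it was in 3 promoters, to 12 bases in 20 and to its last 8 bases, TGATGTCA, in 1189 (3.62%). Among all 26 pairings of the promoter entries used, from different members and in either orientation, the next longest shared run was 10 bases. The other Akap4 entry did not hold the run. The run was found by looking at these sequences, and the match is a description of letters, not a mapped binding site.

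The last 8 bases of the run match TGANGTCA, where N is any base, a loose form of the cyclic AMP response element (CRE), the sequence that CREB and the germ cell factor CREM bind. This motif was searched on both strands and chosen after the promoters had been read. It was in 3 of the 6 member genes with an entry used, namely Akap3, Akap4 and Ropn1, and in 2902 of 32851 promoters (8.83%). Here and below, a gene counted where any of its entries matched. The shares over all promoters count entries, 32851 for 27025 genes, so the units differ. Akap3 held a further match that spans the start itself. Among the pathway genes listed further on, 7 of 36 with an entry held TGANGTCA, namely Akap6, Fscb, Gapdhs, Hk1, Ldha, Prkar1a and Txndc2. The strict element TGACGTCA was in 0 of the 6 genes and in 1.79% of all promoters. Its core TGACG, which the strict element also holds, was in 1 of 6, Fsip2 at -120 to -116, against 20.8% of all promoters. TATAAA, the TATA box, was in none of the 6 and in 13.6% of all.

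Ropn1 and Ropn1l, which encode ropporin and its paralog, partners of Akap3 in the sheath, were above background too. Ropn1 was at 10.75, 10.72 and 10.75, with exactly equal values on replicates 1 and 3. Its mean of 10.74 ± 0.02 (n = 3) was 2.76 above the level (limma, adjusted p = 7.11e-06). Ropn1l was at 11.82, 11.73 and 11.90, with a mean of 11.82 ± 0.09 (n = 3) that was 3.83 above the level (limma, adjusted p = 0.000121). Ropn1l ranged over 0.17 between arrays and Ropn1 over 0.03. Under another quantile normalization these ranges were 0.08 and 0.07, and with the column medians aligned they were 0.20 and 0.06.

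The upstream sequences of this paralog pair differed in composition and are shown with Spa17, whose promoter was the richest in CpG among the 6. Capitals mark TGANGTCA in Ropn1, the RFX core GTTGCC and the GC box GGGCGG (as its reverse complement) in Ropn1l, and the GC box in Spa17. The stretches lie at chr16:34651091-34651210, plus strand; chr15:31453690-31453809, minus strand; and chr9:37613722-37613841, minus strand, of build GRCm38.p6. Spa17 has 2 entries whose starts differ by 1 base, and the first is shown.
Ropn1: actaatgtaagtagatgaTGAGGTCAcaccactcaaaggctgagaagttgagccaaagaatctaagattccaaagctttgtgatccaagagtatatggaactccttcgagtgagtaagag
Ropn1l: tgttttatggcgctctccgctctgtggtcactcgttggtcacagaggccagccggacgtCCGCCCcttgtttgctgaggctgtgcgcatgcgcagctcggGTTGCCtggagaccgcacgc
Spa17: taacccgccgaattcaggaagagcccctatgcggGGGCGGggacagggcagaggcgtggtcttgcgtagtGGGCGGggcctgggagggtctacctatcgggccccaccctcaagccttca
The 300-base promoter of Spa17 held 24 CpG dinucleotides, that of Ropn1l 22 and that of Fsip2 14, against a median of 7 over all promoters. Ropn1 held 2, Akap3 held 0, and the Akap4 entries held 0 and 1. GC content followed the same split, from 38.3% in the printed Akap4 promoter, 43.7% in Ropn1 and 45.3% in Akap3 to 55.0% in Fsip2, 58.0% in Ropn1l and 63.3% in Spa17, with a median of 52.7% over all. The GC box was in Spa17 and Ropn1l and in 35.7% of all promoters, and GTTGCC, part of the X-box that RFX factors bind, was in Ropn1l and in 12.5%. None of the 6 motifs searched was in all 6 genes.

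**Figure D2:**
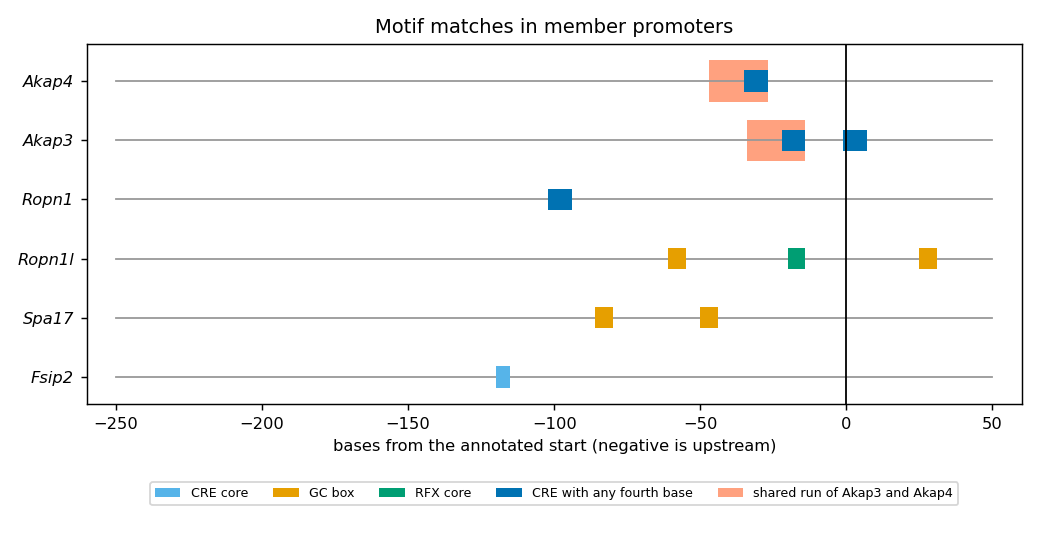
Positions of motif matches on either strand, in bases from the annotated start (horizontal axis), in the 300-base promoters of the 6 genes with an entry used (first entry of each). The 20-base run shared by Akap3 and Akap4 ends with a TGANGTCA match and lies at -34 to -15 and -47 to -28, while the GC boxes are in Ropn1l and Spa17.

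Spa17 and Cabyr were the other RIIa-domain genes. Spa17, a sperm surface and tail autoantigen that was first known as sperm protein 17, was at 12.94, 12.84 and 13.11. Its mean was 12.96 ± 0.14 (n = 3), 4.98 above the background level (limma, adjusted p = 0.000179). It had the widest range over the arrays of the 8 genes, 0.27, with replicate 3 high and replicate 2 low. Cabyr, a calcium-binding protein that is phosphorylated on tyrosine as sperm become able to fertilize, was at 11.46, 11.43 and 11.46. The mean of 11.45 ± 0.02 (n = 3) was 3.47 above the level (limma, adjusted p = 6.83e-06). The annotation ties 11 transcript accessions to the single Cabyr probe set, so its splice forms were not told apart.

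Fsip1 and Fsip2 are named for binding Akap4, and Fsip2 is needed for a normal sheath. Fsip1 was at 9.72, 9.62 and 9.72, exactly equal on replicates 1 and 3. Its mean of 9.69 ± 0.05 (n = 3) was 1.70 above the background level (limma, adjusted p = 0.000234), the smallest margin of the 8 genes. Fsip1 was also called with the background set at the 99th percentile of the background genes, 9.16, where 19.3% of all named genes were. It still lay within their range, since 1 background gene had a mean in the bin that starts at 9.75. Fsip2 was at 11.76, 11.76 and 11.81, exactly equal on replicates 1 and 2, with a mean of 11.78 ± 0.03 (n = 3) that was 3.80 above the level (limma, adjusted p = 1.09e-05). The annotation lists 1 transcript accession for the Fsip2 probe set, and how much of this long gene the probes cover was not analysed here.

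**Figure D3:**
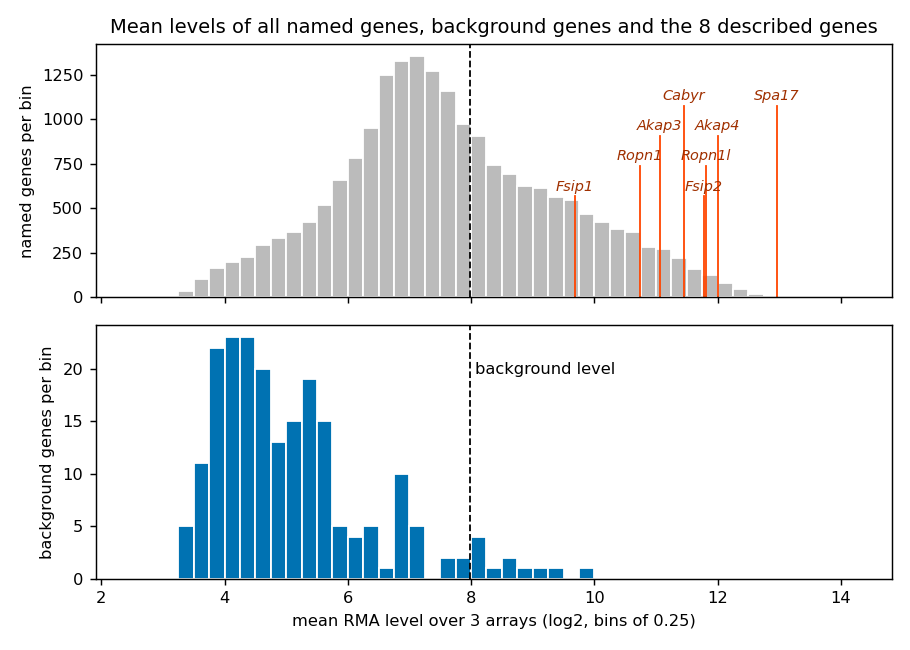
Upper panel, number of named genes per bin of mean RMA level (log2, bins of 0.25) with the 8 genes marked by vertical lines. Lower panel, the 211 background genes on the same axis. The dashed line is the background level of 7.98, and all 8 genes lie to its right, from 9.69 to 12.96.

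The genes of the sheath's PKA system were measured less uniformly. Of the PKA subunit genes, 3 of 5 measured were above background, beside 36.6% of all named genes. Prkar2a, a type II regulatory subunit of the kind the anchors hold, was at 10.05, 10.00 and 10.08, and Prkar1a, a type I subunit, at 9.58, 9.58 and 9.52. Prkacb, a catalytic subunit, was at 8.52, 8.39 and 8.38, with a mean of 8.43 ± 0.08 (n = 3; limma, adjusted p = 0.008). Prkar2b at 8.06 ± 0.04 (n = 3; limma, adjusted p = 0.0734) and Prkar1b at 7.30 on every array were not called. Prkaca, the other catalytic subunit, shares its only probe set with Samd1 and was not assigned a level. The count of 3 became 5 with the lower background of olfactory receptor genes, which calls 55.0% of all named genes, or of vomeronasal receptor genes alone, which calls 62.0%.

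Of 13 other A-kinase anchor genes, 10 were above background, beside 36.6% of all named genes. The list median was 8.90 against 7.45 over all named genes. Akap12 was at 10.82, 10.75 and 10.85, Akap1, which anchors PKA at mitochondria, at 10.55, 10.55 and 10.54, and Akap11 had a mean of 10.53. Akap7, Akap8, Akap8l, Akap9, Akap10 and Akap13 were also called, with means of 8.40, 10.15, 8.90, 9.58, 10.37 and 8.39. Akap5, Akap6 and Akap17b, at 6.86, 6.29 and 7.46 on every array, were not called. The X-linked genes among the anchors were Akap4, Akap14 and Akap17b, and Akap14 was at 8.77 on every array and called. The count of 10 fell to 6 with the 99th percentile background, and to 6 when a margin of 1 above the level was asked for, which call 19.3% and 21.7% of all named genes.

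Genes with a DPY30 domain, a dimerization fold related to the RIIa domain, were all above background, 3 of 3. The share over all named genes was 36.6%. Dpy30, a subunit of histone methyltransferase complexes, was at 12.10, 12.06 and 12.12. Dydc1 was at 12.11, 12.05 and 12.14, and Dydc2 at 10.48, 10.51 and 10.43. Among binding partners, Fscb, which binds Cabyr, was at 9.21 on every array and called. Rhpn1, which encodes rhophilin, was at 7.02, 7.02 and 6.90 and was not called. Its mean of 6.98 ± 0.07 (n = 3) lay below the background level, which does not show that its transcript is absent.

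Enzymes and carriers of the sheath were above background in 15 of 15 genes, with a list median of 11.18. Gapdhs, the sperm glyceraldehyde 3-phosphate dehydrogenase bound to the sheath, was at 11.09, 11.09 and 11.01. The aldolase genes Aldoa, Aldoart1 and Aldoart2 had means of 11.60, 10.25 and 11.18, and the retrogene copies can share probes with Aldoa, so these values are uncertain. Ldhc, a lactate dehydrogenase of germ cells, was at 12.93, 12.86 and 12.98, and Pgk2, a germ cell phosphoglycerate kinase, at 12.33, 12.27 and 12.42. Eno4, an enolase of the tail, was at 9.48 on every array. The sperm thioredoxin genes Txndc2 and Nme8 had means of 12.31 and 11.73, and Gstm5, a glutathione transferase, 12.62. In all, 32 of 38 measured pathway genes (84.2%) were called, beside 36.6% of all named genes. These lists were chosen with earlier results of these arrays known, so their counts describe the genes and were not tested as sets.

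**Figure D4:**
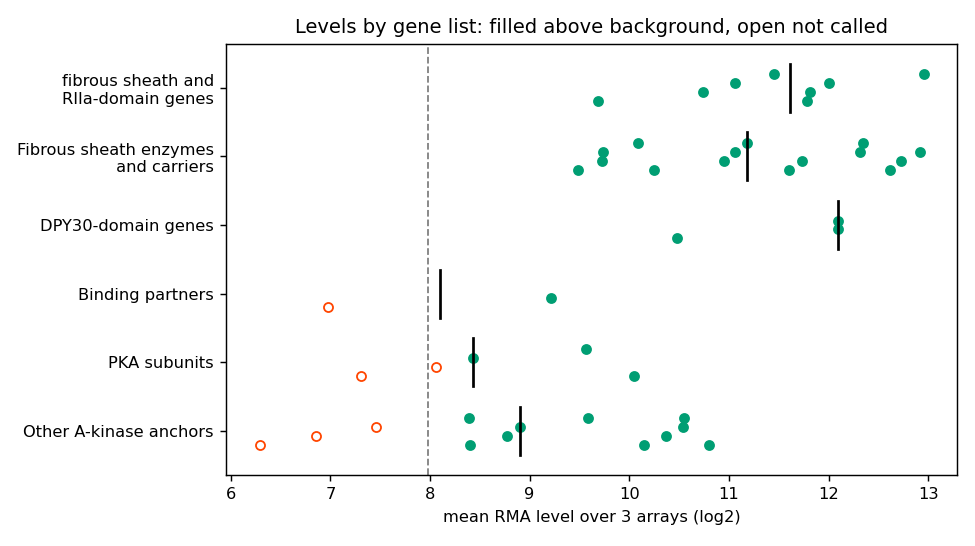
Mean RMA level (log2, horizontal axis) of each gene of the described set and of the pathway lists, filled where above background and open where not called, with a black bar at each list median and the background level dashed. The 8 genes and the 15 enzymes and carriers lie wholly above the level, while 3 of 13 other anchors and 2 of 5 PKA subunits are open.

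The 8 genes differed little between arrays but mostly in the same way. None was tied on all 3 arrays, whereas 39.0% of genes above background and 46.0% of all named genes were. Of the germ cell markers described below, 0 of 7 of elongating spermatids, 1 of 7 of round spermatids and 2 of 8 of spermatocytes were tied. Ranges of the 8 genes ran from 0.03 for Ropn1 to 0.27 for Spa17. Their median was 0.07, against 0.09 over the 4443 other genes above background that were not tied. With tied genes included, the median over all 7287 other genes above background was lower, 0.025. Replicate 2 alone was lowest for 7 of 8 genes, the exception being Fsip2, and replicate 3 alone was highest for 6 of 8, the exceptions being Ropn1 and Fsip1. Among those 4443 genes the same held for 58.7% and 62.0%. Over all 10765 named genes not tied it held for 32.0% and 33.9%, and replicate 2 alone was highest for 39.4%. After another quantile normalization of the deposited columns the counts were 3 and 2, and replicate 3 was above replicate 2 for 3 of 8 genes instead of 8. With the column medians aligned instead, these counts were 8, 5 and 8. Ropn1l and Spa17 kept replicate 3 highest under both scalings. With 3 arrays, no gene was named for a pattern like that of the 8.

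**Figure D5:**
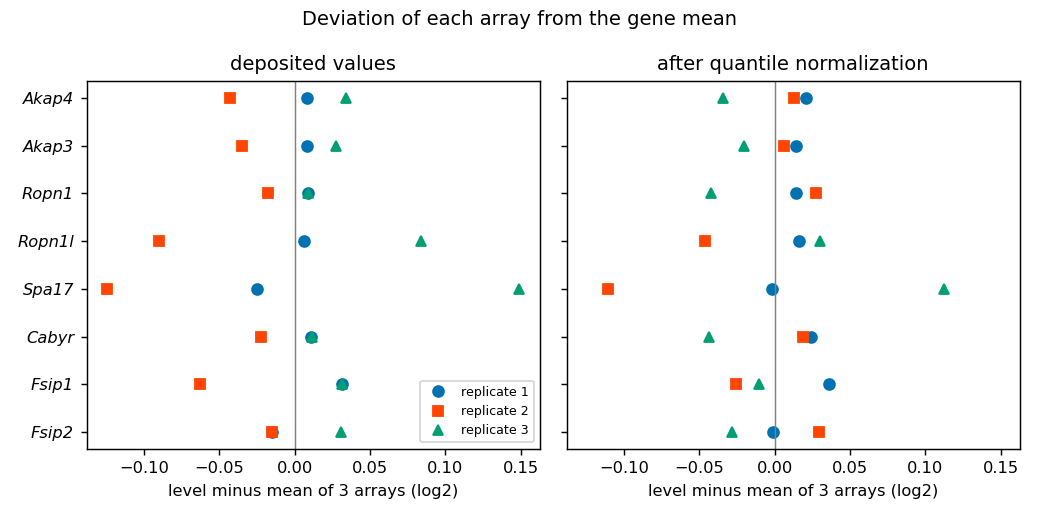
Level on each array minus the gene's mean over 3 arrays (log2, horizontal axis) for the 8 genes, as deposited (left) and after quantile normalization (right). On the left replicate 2 alone is lowest for 7 of 8 genes, and on the right for 3.

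The labelled cell type was set against marker genes. All 7 elongating spermatid, 7 round spermatid and 8 spermatocyte markers were above background, and 2 of 8 of spermatogonia. Gapdhs is in both the elongating spermatid list and the list of sheath enzymes and carriers. Of somatic genes, 6 of 6 measured Leydig, 4 of 7 Sertoli, 4 of 8 peritubular, endothelial and stromal, and 3 of 5 blood and immune markers were called, beside 36.6% of all named genes. Among the Sertoli calls, Gata4, with tied values, lay only 0.015 above the level. Spermatocyte and Leydig markers, which other testis cells express, were thus called in every measured member. None of 7 measured epididymal markers was called by limma's adjusted test, 0 had an unadjusted p under 0.05, and 0 were above the level on all 3 arrays. The mean level of the list over the arrays ran from 12.41 to 12.47 for elongating spermatid, 11.66 to 11.69 for round spermatid, 10.77 to 10.91 for spermatocyte, 10.15 to 10.29 for Leydig and 8.79 to 8.80 for Sertoli markers. As deposited, the spermatid and spermatocyte lists were lowest on replicate 2 and highest on replicate 3, as were most of the 8 genes. After another quantile normalization the spermatocyte list kept that order, while both spermatid lists were highest on replicate 2 and lowest on replicate 3. The part of these markers in the order of the 8 genes was not tested. In RNA of mixed cells, fewer cells of a type and less RNA per cell cannot be told apart.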

How the data were processed

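The authors deposited log2 levels per probe set in 1 column for each of 3 arrays. Per the series' design text and the labels' protocols, 200 ng of total RNA per array was labelled, and the levels were made by RMA in Affymetrix Power Tools with annotation based on mm9. No software version is given in the sources used. The column medians were 7.17, 7.20 and 7.17, and values were not centred. The number of arrays limits the precision.

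The platform annotation named 1 gene for 21789 of 35556 probe sets, several for 1621 and none for 12146. Symbols were updated by Entrez identifier to GRCm38.p6 (21698 matched). Levels of a gene's own probe sets were summarised by their median. Probe sets naming several genes were left out. Means were tested against the background level with limma 3.58.1 in R 4.3.3 (intercept, empirical Bayes, one-sided). Of the genes, 46.0% were tied on all arrays, which gave the prior 0.27 degrees of freedom and makes the p-values of tied genes very small. In simulated data without ties for 19938 genes, 37 of 50 genes placed 0.5 above the level and 46 of 50 placed 1 above it were called, and 2 of 19738 at or below it. Because the simulation held no tied genes, these counts do not show how the test behaves in the deposited data with their ties.

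The 8 genes, the pathway and marker lists and the tests were chosen with earlier results of these data known. All 8 genes and every measured gene of the pathway lists could be named, by role and not by level. Marker genes were named only where they bore on a result, and no gene was named for a pattern over 3 arrays. Promoters of 6 of the 8 genes were used. Entries on chromosome 18, where Cabyr lies, were left out of the search among the 8 genes. Fsip1, on chromosome 2, had no entry among the promoters. Cabyr and Fsip1 thus had no entry used here, and the promoter counts do not cover them. Protein sequences were not analysed here.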

Additional observations from a re-analysis of the deposited data

How the results depend on the processing

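All 8 genes stayed above background under each of 15 alternatives, which changed the background level, the probe sets, the call rule, the variance model or the scaling, or left out an array. In 112 refits of single genes limma's adjusted p ran from 2.32e-17, for Ropn1 and Fsip1 on a pair of arrays with equal values, to 0.0226 for Fsip1 without replicate 3. Levels moved by at most 0.07, within 1 SD in each of 64 cases, and 6 of 16 ranges over the arrays moved by more than 1 SD under another scaling. The count of all named genes above background, 7295, was 3847 with the 99th percentile, 4333 with a margin of 1, 10958 with olfactory receptor genes and 12359 with vomeronasal receptor genes alone, and 6662 to 7090 with an array left out. PKA subunits called rose from 3 to 5 with either of these last backgrounds. Other anchors fell from 10 to 6 with the 99th percentile or the margin. Quantile normalization took the genes lowest on replicate 2 alone from 7 to 3, those highest on replicate 3 alone from 6 to 2 and those higher on replicate 3 than 2 from 8 to 3, and the cause was not tested. With the column medians aligned these counts were 8, 5 and 8. Other backgrounds and the margin move the counts because they move the level a mean must pass. No paired analysis was possible because the arrays form 1 group.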
